A study of Mus musculus with 7 samples.

Results

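The regions described are all 7358 intervals of the EKLF peak list of fetal liver erythroid progenitors, out of 26711 intervals in the 2 peak lists of the study. Every interval of the progenitor list was kept, with no filter. The study holds 7 samples from the fetal livers of mice at stage E13.5, namely 2 ChIP libraries, 2 input libraries and 3 RNA libraries. All came from mice whose Klf1 carries a hemagglutinin tag, a short peptide that an antibody can pull down, so no untagged group is at hand. Progenitors were sorted as Ter119-CD71- and Ter119-CD71+ cells and put together, and erythroblasts as Ter119+CD71+ cells, where Ter119 marks maturing red cells and CD71 is the transferrin receptor. At least 3 sorts were made for each population. The progenitor groups are 1 ChIP library with the anti-hemagglutinin antibody, 1 input library made without antibody, and 1 RNA library. The list is a single set of intervals for the stage, in build mm9 coordinates, so no value below has a replicate check. Intervals given with the values are 95% intervals that cover counting error only, since neither peaks nor genes are replicates.

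EKLF, the product of Klf1, is a zinc-finger transcription factor of the red cell lineage that binds CACCC-type elements, GC-rich stretches found in the promoters of the beta-globin gene and of many other erythroid genes. It is needed for definitive red cell formation and is known for its part in globin, heme, membrane and cell cycle gene expression. Progenitors of the fetal liver divide fast and have not yet built up hemoglobin.

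Cell type markers were looked up in the progenitor RNA. Of 12 progenitor markers, 9 are listed, with summed levels of 1369 from Zfpm1 (457) down to Tfrc (21.3), while Kit, Gata2 and Myb are not listed. None of 11 hepatocyte markers is listed, and of 11 macrophage and granulocyte markers 1 is (Spn, 196), as is 1 of 9 megakaryocyte markers (Gp1ba, 9.35). The expression table holds only coding exons with a value in both stages, so a gene that is missing from it need not be silent in progenitors. For the same reason a listed marker cannot tell progenitors from erythroblasts, and the stage label was not tested by these values.

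The stretches below show the letters that EKLF is known to read, CCNCNCCC, in promoters of genes whose first coding exon had a progenitor peak. Each is a stretch of 100 bases on the upstream side of the RefSeq start site in build GRCm38.p6. It is written 5′ to 3′ along the gene, with every match on either strand in capitals. The stretches lie at unlike distances from the start site, from -232 to -133 bp for Pim1 to -100 to -1 bp for Rrm2. Genes were picked among those whose promoter holds a match, so the stretches do not show how dense matches are in general. Neighbouring matches may run into each other. Pim1 (a survival kinase, chr17:29490553-29490652, plus strand) and Eif1 (a translation initiation factor, chr11:100319770-100319869, plus strand) had the highest enrichments at first coding exons outside the histone genes. Zfpm1 (FOG1, the cofactor of GATA1, chr8:122282019-122282118, plus strand), Blvrb (biliverdin reductase B, chr7:27447757-27447856, plus strand), E2f2 (a cell cycle factor, chr4:136180628-136180727, plus strand) and Rrm2 (a subunit of ribonucleotide reductase, chr12:24708154-24708253, plus strand) stand for the erythroid and cell cycle lists.
Pim1 promoter: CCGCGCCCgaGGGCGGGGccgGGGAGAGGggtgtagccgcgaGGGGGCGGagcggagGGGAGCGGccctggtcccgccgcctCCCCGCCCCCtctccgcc
Eif1 promoter: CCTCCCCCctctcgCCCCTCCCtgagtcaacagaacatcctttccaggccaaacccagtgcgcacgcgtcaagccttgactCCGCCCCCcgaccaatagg
Zfpm1 promoter: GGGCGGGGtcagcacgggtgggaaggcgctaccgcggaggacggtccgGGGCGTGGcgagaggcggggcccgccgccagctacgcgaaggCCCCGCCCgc
Blvrb promoter: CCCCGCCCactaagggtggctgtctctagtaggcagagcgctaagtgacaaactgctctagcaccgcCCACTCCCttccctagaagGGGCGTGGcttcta
E2f2 promoter: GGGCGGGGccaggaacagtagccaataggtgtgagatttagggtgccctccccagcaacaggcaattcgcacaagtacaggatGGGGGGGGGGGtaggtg
Rrm2 promoter: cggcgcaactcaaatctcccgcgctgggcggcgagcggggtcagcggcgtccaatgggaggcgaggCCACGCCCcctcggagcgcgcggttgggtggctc
A match to these letters is common, since 49.5% of all promoters of 300 bases in the table hold at least 1, and a match describes letters, not a bound site. Among all promoters of at least 60% GC, 83.5% hold a match. The Rrm2 stretch holds the narrower form CCACGCCC, and the Zfpm1 and Blvrb stretches hold it on the other strand, as GGGCGTGG. On either strand 5.33% of all promoters hold this form, and 11.8% of those of at least 60% GC.

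Most progenitor peaks were compact intervals of 1 to 3 kb. The median width was 1914 bp, the central 50% ran from 1597 to 2264 bp, and 4864 peaks (66.1%) were 1500 to 2500 bp wide. Only 100 peaks (1.36%) were under 1 kb and 54 (0.734%) were 5 kb or wider. Fragments of about 200 bp went into the library, so each interval spans several fragments and does not mark a single motif. The authors' enrichment of each peak, read here as fold, had a median of 7.03, with the central 50% from 5.74 to 8.87 and a range of 2.14 to 85.8. Their -log10 p ran from 5.0 to 310, with 11 peaks at that highest value. Ranks given below order the peaks by this -log10 p and, where it is tied, by enrichment. Across the 7358 peaks wider ones had slightly lower enrichment (Spearman rho -0.152) and higher -log10 p (rho 0.405), all taken from the same library, which is a description and not a test.

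**Figure D1:**
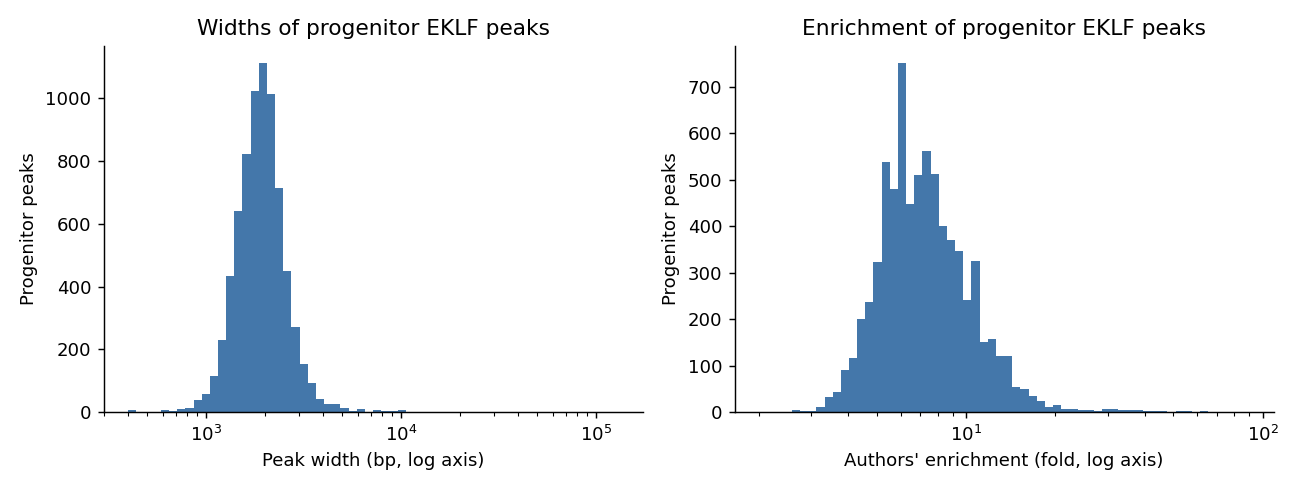
Number of progenitor peaks by width in bp (left) and by the authors' enrichment in fold (right), both on log axes. Widths gather around the median of 1914 bp and enrichments around 7.03, each with a thin tail to the right that ends at 126303 bp and 85.8.

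The widest intervals were long blocks rather than sharp peaks. The widest, at chr6:114444179-114570481, covered 126303 bp at an enrichment of 6.74 between the listed genes Sec13 and Tamm41. The next, at chr8:126060162-126148762, covered 88601 bp at 8.21 between Afg3l1 and Nup133, a stretch whose RefSeq gene order holds 48 ribosomal RNA genes, among them 5S copies. An interval of 57427 bp lay at chrX:92118507-92175933 (enrichment 5.59). Intervals of 42699 and 37362 bp lay at chr6:47686681-47729379 (9.36) and chr6:47600037-47637398 (10.8), both between Ezh2 and Pdia4, where the gene order holds the 4.5S RNA gene Rn4.5s. At the other end, 22 peaks were narrower than 700 bp, and 5 of them, 414 to 420 bp wide on 4 chromosomes, shared the same enrichment of 8.25 and the same -log10 p of 16.2.

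Of the 20 highest enrichments of the list 12 lay in a window of histone genes on chromosome 13. The highest-ranked peak of the list, at chr13:22131754-22136492, had an enrichment of 70.9 and covered the start of H4c9, a gene of histone H4. The window, chr13:21632881-24276101, was set as the listed histone genes there with 500 kb on either side. It held 36 peaks (0.489% of the list) with a median enrichment of 32.4, against 6.96 for the rest. All 6 listed histone genes of the window had a peak within 5 kb, beside 30.8% of all 5214 listed genes. Of 70 clustered histone genes looked up, only these 6 are listed. H2ac10, H2ac8 and H4c4 lie in the same run of 9 peaks, at chr13:23621978-23678316, so the 6 genes are not independent. In the histone gene cluster of chromosome 3, between Bola1 and Txnip, a peak at chr3:96040667-96045224 had 34.2 and one at chr3:96065866-96068265 had 37.9, and the gene order there holds 10 histone, 25 tRNA and 8 small nuclear RNA (snRNA) genes, among them Rnu1b1 and Rnu1b2.

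Outside the histone window the single highest enrichment of the list, 85.8, was at chr17:4625090-4626975, between Scaf8 and Arid1b, with the nearest listed exon 616 kb away. On chromosome 11 a set of 4 peaks between Trim37 and Mtmr4 had 46.3, 44.9, 43.5 and 38.2, and the RefSeq gene order between those genes holds 8 genes classed as snRNA, among them Rnu1a1 and the U3 copies Rnu3b1 to Rnu3b4. The peaks at chr11:101506017-101508468 (49.3) and chr11:101501888-101504457 (34.8), between Nbr1 and Dhx8, lie in a stretch whose gene order holds 5 snRNA genes, among them Rnu2-10. A wide peak at chr1:24618015-24623943, between Smap1 and Phf3, had 42.3 and was the second in rank. The peak at chr10:71759153-71760796 (36.7) lay between Cisd1 and Zwint, with no snRNA gene in the order between them. These stretches can be long, and how often any stretch between listed genes holds an snRNA gene was not measured. Histone and snRNA genes are gene families in several near-identical copies, to which short reads can map in more than 1 place. Input libraries served the authors as background, but values of the input were not used here, and the part of such copies in these enrichments was not tested.

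Progenitor peaks were spread thinly along the chromosomes. The median gap from the end of a peak to the start of the next was 185 kb, with the central 50% from 64.9 to 451 kb. Of 7337 gaps 55 were under 1 kb, 381 (5.19%) under 10 kb and 2537 (34.6%) under 100 kb, and the longest was 7518 kb. With peaks joined where the gap was at most 10 kb, 703 peaks (9.55%, 8.90 to 10.2%) lay in 322 clusters and 6655 stood alone. Of the clusters 291 were pairs and 31 held 3 peaks or more. Peaks in pairs had about the same enrichment as lone ones (medians 6.88 and 7.0), and the 121 peaks in larger clusters had a median of 7.96 with an upper decile of 32.4. Most of the peaks above that decile lay in the histone window. Measured the same way, the erythroblast list, with 19353 peaks, had a median gap of 74.4 kb and 24.4% of its peaks in clusters, and a longer list has shorter gaps for its number alone.

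The 2 longest runs outside the histone window were evenly spaced. The largest cluster, chr4:88402588-88453341, held 15 peaks of 2137 to 2713 bp that together covered 72.9% of 50.8 kb. Their centres followed each other at 2752 to 3069 bp, apart from 1 step of 10283 bp, while enrichment ran unevenly from 5.40 to 21.8. The nearest listed genes were Klhl9, 36.5 kb to the left, and Plaa, 5787 kb to the right. The RefSeq gene order between them holds 31 protein-coding genes, among them the interferon gene Ifnz. A run of 6 peaks at chr12:55810201-55840797 had steps of 4038 to 4786 bp and 1 of 10564 bp, with enrichments of 11.1 to 29.6, between Dtd2 and Baz1a, where the gene order holds 9 snRNA genes. Whether these runs follow repeated copies of a sequence was not tested.

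**Figure D2:**
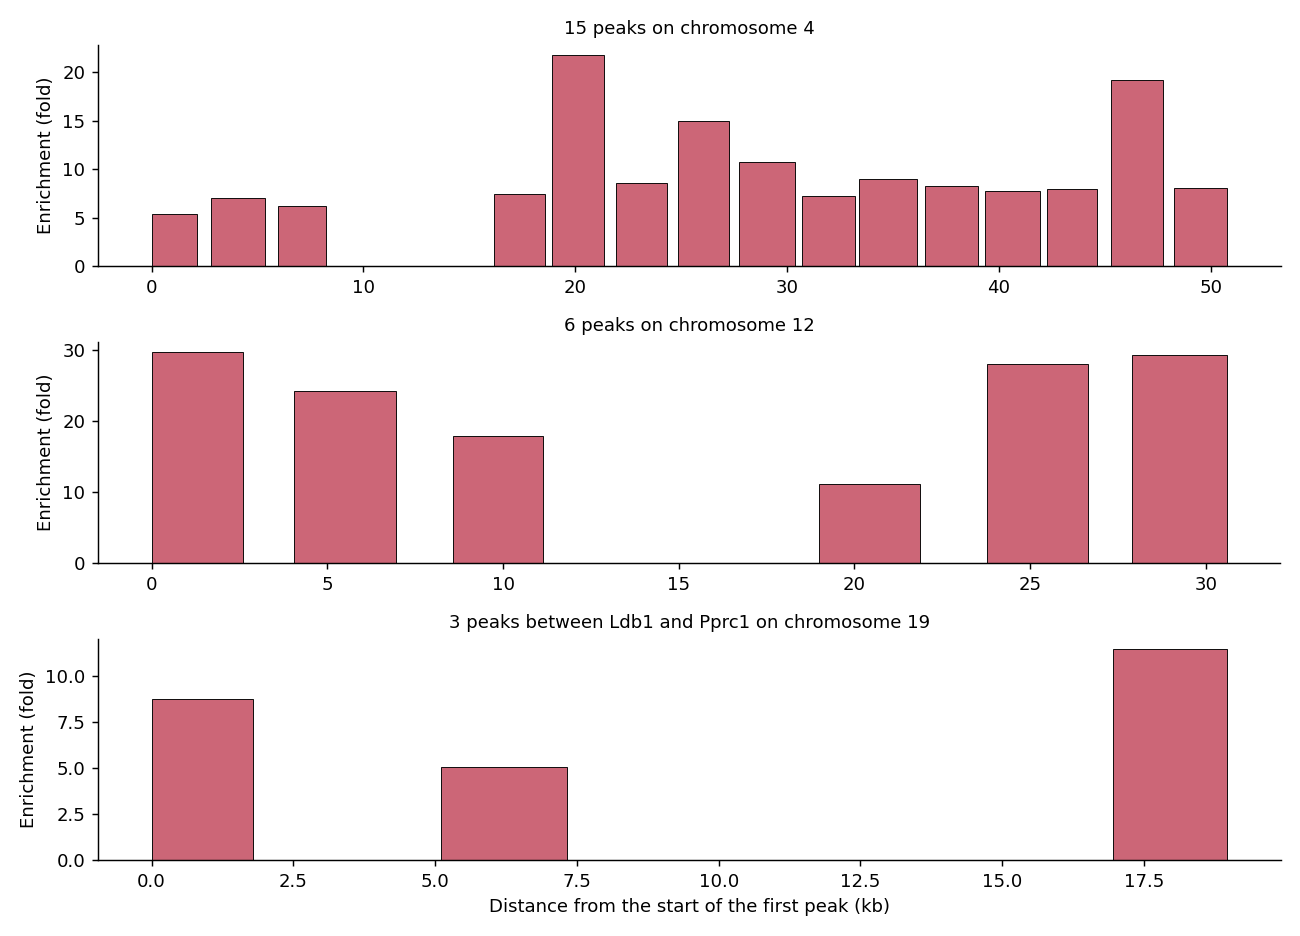
Enrichment (fold, from 0) of each peak in 3 clusters against distance in kb from the start of the first peak, with the bar as wide as the peak. The 15 peaks of the chromosome 4 run and the 6 of the chromosome 12 run follow each other at near-even steps with 1 wider step each, and the 3 peaks next to Ldb1 do not.

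A few of the other clusters of 3 or more peaks are given here, chosen after their values were seen. Between the neighbouring genes Ldb1, whose product bridges enhancers and promoters in a complex with GATA1 and TAL1, and Pprc1, 3 peaks at chr19:46113381-46132339 had enrichments of 8.77, 5.07 and 11.5. The first lay 2.63 kb from the Ldb1 exons and the last 4.76 kb from those of Pprc1, with no other gene in the RefSeq order between them. At chr8:87489075-87515573, 4 peaks took in Rnaseh2a (a subunit of ribonuclease H2), Prdx2 (peroxiredoxin 2, an abundant antioxidant of red cells) and Junb (a transcription factor), with enrichments of 6.89 to 10.99. Near Slc25a37 (mitoferrin 1, the mitochondrial iron importer), 3 peaks at chr14:69887635-69904110 had 4.99 to 6.04, and the nearest was 20.2 kb from its listed exons. At chr7:13608233-13624474, 3 peaks of 6.86 to 11.8 took in Trim28, a corepressor, with Chmp2a and Ube2m.

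Peaks were uneven between chromosomes when set against the listed genes. Chromosome 19 had 0.970 peaks for each listed gene and the X chromosome 2.83. On the X chromosome 6 of 348 peaks (1.72%, 0.793 to 3.71%) had their centre no more than 1 kb from a listed start of a coding exon, against 18.7% (13.8 to 24.7%) on chromosome 19, 16.9% on chromosome 17 and 16.0% on chromosome 11. Among the autosomes and the X chromosome, the X also had the lowest median enrichment (6.26) and the longest median gap (313 kb), and 88.5% of them lay over 100 kb from a listed start. Only 123 genes are listed on the X chromosome, and the part of exon listing in these differences was not tested.

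Position was measured against 22641 distinct coding exon starts, read from the exon names of the expression table (30257 rows, 5214 genes). A peak can therefore be close to a gene that is not listed and still count as distant. Of the 7358 peaks 762 (10.4%, 9.68 to 11.1%) had their centre within 1 kb of a listed start, 18.7% within 5 kb and 50.9% within 100 kb, while 3616 (49.1%) lay farther away. Peaks within 1 kb had a median enrichment of 7.70 and those beyond 100 kb of 6.60. By rank on the authors' -log10 p the share within 1 kb was 15.5% (13.1 to 18.3%) in the highest 10% of the list and 6.39% (4.84 to 8.40%) in the lowest 10%. The same groups had median widths of 2395 and 1605 bp. In the erythroblast list 6.29% of peaks lay within 1 kb and 62.7% beyond 100 kb. That list is longer, with 19353 peaks, and by number it held more peaks within 1 kb, 1217 against 762. The part of list length in these shares was not tested.

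Among listed exons, progenitor peaks sat at the 5′ end of the coding sequence. Of 660 first coding exon starts on the forward strand, 326 (49.4%, 45.6 to 53.2%) had a peak within 1 kb, and this share is the background for first coding exons below. The share was 17.5% at the second coding exon, 10.4% at the third, 5.64% at the fourth, 2.46% at the fifth, and 0.325% from coding exon 9 on. On the reverse strand exons are numbered from the 3′ end and the listed start is the 3′ edge of the exon. There the last coding exon had a peak in 73 of 1518 cases (4.81%, 3.84 to 6.0%), and the exons before it in 5.20 to 7.79%. Exons of 1 gene can lie within 1 kb of the same peak, so the shares of neighbouring exons are not independent.

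At the 326 occupied first coding exons the peak covered the exon start itself in 321. The centre lay upstream of it in 220 (67.5%, 62.2 to 72.3%), with a median of -97 bp and central 50% from -270 to 48.5 bp. Bins of 250 bp gave the same picture at finer scale. The bin from -500 to -250 bp was covered at 49.1% of first coding exon starts, the bin from -5000 bp at 1.52% and that from 2000 bp at 0.606%. Around the fifth coding exon coverage was 7.13% in the bin from -5000 bp, 0.246% in the bin from 0 and 1.23% in that from 4000 bp.

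**Figure D3:**
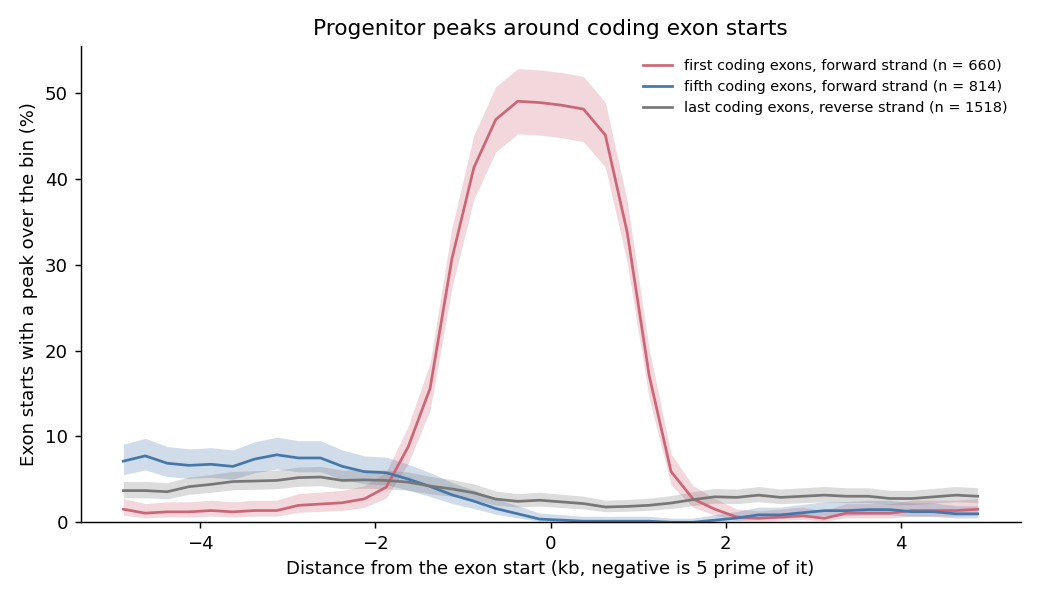
Share of exon starts (%) with a progenitor peak over each bin of 250 bp, by distance in kb from the start, with negative values on the 5′ side and bands for the 95% Wilson interval. First coding exons of the forward strand reach 49.1% just upstream of the start, while the fifth coding exon and the last coding exon of the reverse strand stay under 10% throughout.

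The highest enrichments at first coding exons belonged to the histone genes H2bc4 (61.6), H2ac10 (52.2) and H4c4 (30.1). After them came Eif1 (23.1), whose promoter is shown above, and Pim1 (21.4). Smdt1, a regulator of the mitochondrial calcium uniporter, had 18.98, Get4, of the pathway that inserts tail-anchored proteins, 18.7, and Hnrnpa3, an RNA-binding protein, 17.2. H2ax, the histone variant of DNA damage signalling, had 16.2, and Xrn2, the nuclear exonuclease that ends transcription, 15.8. The centre of the Pim1 peak lay at -290 bp from the coding start, and those of the other 9 between -33 and 895 bp.

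A gene was counted as bound where a peak overlapped the span of its listed exon starts extended by 5 kb. Of 5214 listed genes 1608 were bound (30.8%), with an interval of 29.6 to 32.1%. A single peak was found at 1472 genes, 2 peaks at 131, and 3 at 5 genes, H4c4, Phykpl, Prdx2, Tubgcp2 and Adk. Only 1491 peaks (20.3% of the list) lay at a listed gene, and 227 of them lay at more than 1, so that 400 bound genes (24.9%) had no peak to themselves. With 5 kb around the most 5′ listed exon start alone, 28.3% of genes were bound. Among the bound genes with the highest deposited levels were Eef1a1 (translation elongation factor 1 alpha), Tuba1b (alpha tubulin), Hsp90ab1 (a chaperone) and Tubb5 (beta tubulin). Among those with no peak were Ubb (ubiquitin B), Eef2 (translation elongation factor 2), Tuba1c, Pkm (pyruvate kinase) and Rpl4.

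Eef1a1 had a level of 4105 and a peak of 11.9-fold enrichment, while Eef2 had 3912 and no peak within 5 kb. Tuba1b had 2692 with a peak of 8.0, and Tuba1c had 2729 with none within 5 kb. Tuba1b and Tuba1c have 1 listed exon each, so the rule saw only 5 kb around that exon start. Genes of like function and high level thus fell on either side of this rule. These levels are summed coverage without division by length, so they place a gene only roughly against another.

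Occupancy was more frequent among genes with a higher level in progenitor RNA. Genes were ranked by level within 8 classes of the number of listed exons and split into 10 level classes of 518 to 526 genes. In the lowest class 24.5% were bound (21.0 to 28.4%) and in the highest 44.6% (40.4 to 48.9%), a difference of 20.1 points (14.4 to 25.6). The classes between were not strictly ordered: the second had 23.9%, the fifth 31.2%, the sixth 28.6% and the ninth 35.6%. The median level was 18.8 in bound genes and 9.81 in the others, and in 7 of the 8 exon number classes bound genes had the higher median, with log2 ratios of the medians from -0.06 to 0.71. The bound share itself ran from 21.0% for genes with 1 listed exon to 41.1% for those with 8 to 10.

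How much of the 5′ end is listed changed with the level too. First coding exons of the forward strand were listed for 16.0% of forward genes in the lowest class and 35.8% in the highest, and peaks gather at those exons. Among the 640 forward genes with a listed first coding exon, of which 317 (49.5%) had a peak within 1 kb of it, the 5 level classes gave 37.9%, 52.3%, 52.0%, 57.0% and 48.8%. The highest and lowest of these differed by 10.9 points (-1.17 to 22.6), an interval that includes 0. By the value of the first coding exon itself the shares rose from 40.6 to 54.7%, a difference of 14.1 points (1.83 to 25.7). Forward genes without a listed first coding exon were called bound by the span extended by 5 kb, a wider rule than the 1 kb used for the others. Their shares went from 19.1 to 34.0%, a difference of 14.9 points (8.83 to 20.8). The part of exon listing in the difference over all genes was not tested beyond these values.

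**Figure D4:**
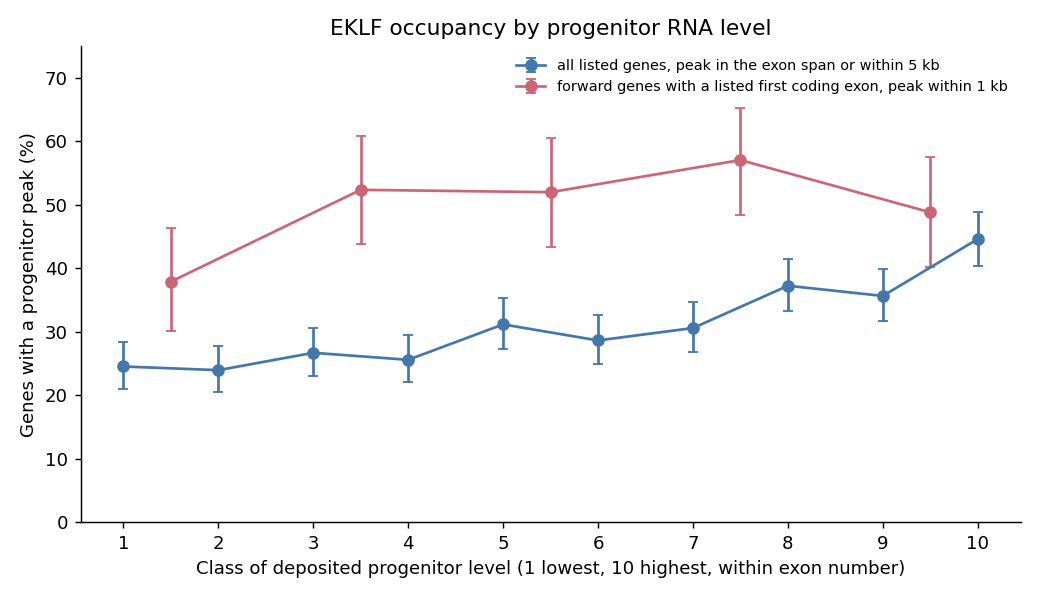
Share of genes with a progenitor peak (%) by class of deposited progenitor level, with 95% Wilson intervals, for all genes in 10 classes and for forward genes with a listed first coding exon in 5 classes. The first series goes from 24.5 to 44.6%, while the second goes from 37.9% to 57.0% in class 4 and 48.8% in its highest. A peak counts in the span extended by 5 kb in the first series and within 1 kb of that exon in the second.

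The gene lists below are described by how many of their listed members were bound, beside 30.8% of all listed genes. The median level class was 6 or higher in 11 of the 13 lists that are not marker lists. No comparison matched on level was made, and nothing particular to a list is read from these counts. Over these lists 120 of 245 listed members were bound (49.0%, 42.8 to 55.2%).

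Among transcription factors and cofactors of the red cell, 13 of 28 listed genes had a peak. Lyl1, a partner of the E proteins, had 10.2, the erythropoietin receptor gene Epor 9.66, Ldb1 8.77 and Sp1, which binds GC boxes, 8.77. Zfpm1 had peaks of 7.45, over its first coding exon, and of 4.87, over coding exon 10. Nfe2, a factor of globin and platelet gene expression, had 6.78. Klf1 itself had a peak at chr8:87431782-87433388 with an enrichment of 4.96, ranked 6866 of 7358, whose centre lay 3922 bp downstream of the third coding exon start. Gata1, the central erythroid factor, had no peak within 5 kb, and its nearest was 111 kb away. The nearest peaks to Gfi1b, Tal1 and Myc, an erythroid repressor, a partner of GATA1 and a growth regulator, were 26.1, 75.1 and 532 kb away. All 4 were in the upper 3 level classes.

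In heme synthesis and iron handling 10 of 21 listed genes were bound. Alad (aminolevulinate dehydratase) had 11.5, Tfrc, the gene of CD71, 10.4, and Blvrb 9.90 with its centre 22 bp from the first coding exon start. Cpox (coproporphyrinogen oxidase), Steap3 (an iron reductase) and Tfr2 (transferrin receptor 2), all in the highest level class, had no peak within 5 kb, and their nearest were at 14.99, 106 and 22.4 kb.

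Of the membrane and skeleton genes 4 of 16 were bound (25%, 10.2 to 49.5%), the lowest share of the lists with more than 2 listed genes. These were Bsg (basigin, 11.8), Epb41 (protein 4.1, 7.45), Sptb (beta spectrin, 5.65) and Cd24a (a surface antigen, 5.43). Ank1 (ankyrin 1), Ermap and Add2 (beta adducin) had none within 5 kb, with nearest peaks at 40.6, 5.91 and 20.4 kb. Neither listed globin item was bound. The nearest peak to the alpha-globin genes Hba-a1 and Hba-a2, listed as 1 item, was at chr11:32159282-32160499, 23.8 kb on their 5′ side, with an enrichment of 10.9. The nearest to Hbb-b2 and Hbb-bt, adult beta-globin genes that also form 1 item, was 615 kb away with 34.1.

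Of the G1 and E2F list 11 of 20 had a peak (55.0%, 34.2 to 74.2%), among them Cdkn2d (a CDK4 inhibitor, 11.9), Ccne2 (cyclin E2, 9.03), E2f1 (8.70) and Ccnd3 (cyclin D3, 7.57), with E2f2 at 5.84 and its centre at -350 bp from the first coding exon start. Of DNA replication and mitosis 14 of 29 were bound, among them Mki67 (13.1), Ccnb1 (cyclin B1, 12.6), Cdc6 (a licensing factor, 10.4) and Aurkb (9.91). The helicase subunits were split, with Mcm4, Mcm6 and Mcm7 bound, and Mcm2, Mcm3 and Mcm5, all in the highest level class, not.

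Of ribosome biogenesis 12 of 23 had a peak (52.2%), with Gnl3 (nucleostemin, 13.7), Ncl (nucleolin, 13.6), Npm1 (nucleophosmin, 13.6) and Nop56 (12.5) highest, and of cytosolic ribosomal proteins 25 of 49 (51.0%, 37.5 to 64.4%), with Rps3a1 (17.6) highest. Nop2, Rpl4, Rpl32 and Rpl13a, in the highest level class, and Pes1 and Rrp1, in classes 8 and 7 of 10, had no peak within 5 kb. Many ribosomal protein genes have processed copies elsewhere, and the RNA values may split or share reads with them.

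Of autophagy and maturation genes 7 of 17 were bound, among them Bcl2l1 (BCL-XL, a survival factor, 14.5), Becn1 (10.9), Sqstm1 (8.09) and Bnip3l (NIX, which clears mitochondria, 7.04). Of chromatin modifiers 14 of 29 were bound, among them Smarcd1 (13.7), Chd8 (13.2), Trim28 (11.8) and Smarcb1 (10.4), while Smarca4 and Ncor1 were not. Of 11 listed housekeeping genes 6 were bound. Of a selection of 18 genes known from earlier studies to depend on EKLF 8 were bound (44.4%, 24.6 to 66.3%), among them Pim1, Bcl2l1 and Alad.

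**Figure D5:**
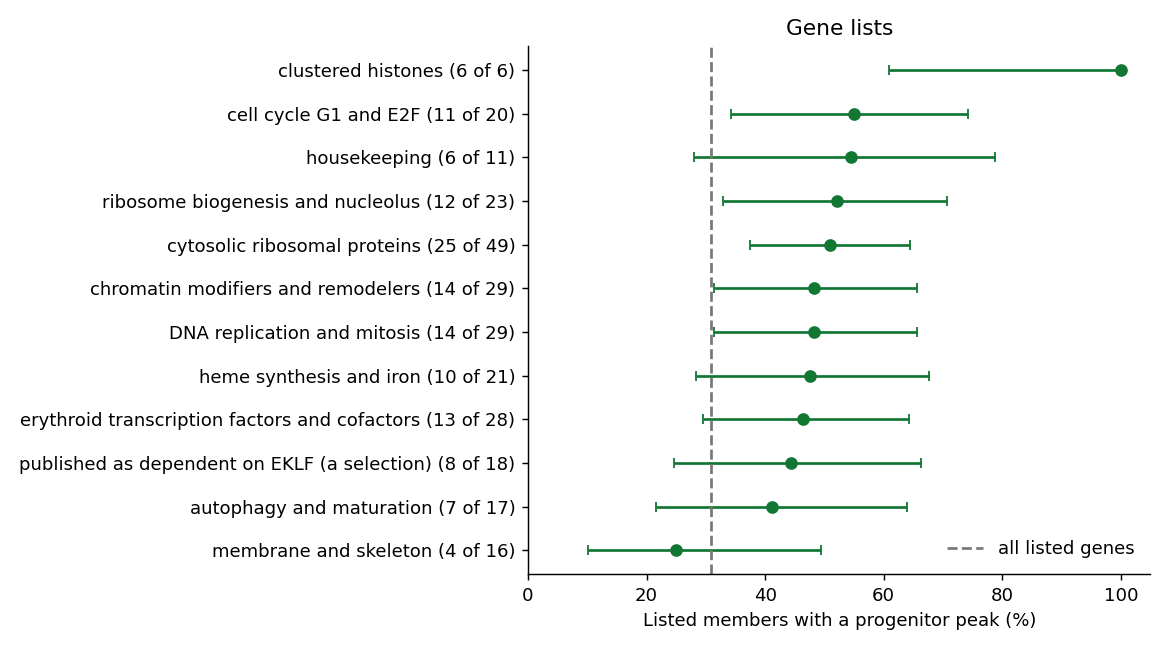
Share of listed members with a progenitor peak (%) for each gene list of at least 5 listed genes, with 95% Wilson intervals and, as a dashed line, the 30.8% of all listed genes. Every list but membrane and skeleton (25%) lies to the right of the line, and the intervals of 6 of the 12 lists include it.

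Members of the lists without a peak within 5 kb lay at about the same distances from the next peak as all such genes. Of 127 such members, marker lists included, 17 (13.4%) had a peak within 10 kb and 72 (56.7%) within 50 kb, against 13.1% and 56.6% of all 3606 listed genes without a peak within 5 kb. The median distances were 40.6 and 40.0 kb. Slc25a38, the mitochondrial glycine carrier, missed the rule at 5.13 kb and Ermap at 5.91 kb.

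How much more often promoters of bound genes held CACCC-type letters differed between comparisons, which were unlike both in the rule for bound and in the genes taken. Among forward genes with a listed first coding exon, bound was taken as a peak within 1 kb of it. There 265 of 317 bound and 254 of 323 others matched a RefSeq promoter by symbol, which gave 299 and 279 promoters. CCNCNCCC, on either strand, was in 73.6% of the bound (68.3 to 78.3%) and 59.9% of the others (54.0 to 65.4%), a difference of 13.7 points (6.04 to 21.2). Base composition moved with it: the median GC content was 63.7% in bound and 59.3% in other promoters, against 52.7% over all promoters. Within promoters of at least 60% GC the shares were 82.8 and 74.8%, a difference of 8.02 points (-0.85 to 17.3), and below it 55.4 and 46.6%, or 8.82 points (-3.77 to 21.0). Both intervals include 0. Over all promoters the shares in these GC classes were 83.5 and 35.2%, so at 60% GC or more the bound promoters did not stand above all promoters. Some genes gave more than 1 promoter, and each was counted as independent, so the intervals here and in the next paragraph may be too narrow.

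The narrower CCACGCCC, seen in the Rrm2, Zfpm1 and Blvrb stretches, was in 15.7% of bound and 7.89% of other promoters, a difference of 7.83 points (2.56 to 13.1). It was 7.26 points (-0.19 to 14.0) at 60% GC or more and 8.41 points (0.458 to 17.4) below it. In these GC classes CCACGCCC was in 15.7 and 15.8% of bound promoters, against 11.8 and 2.63% of all promoters. Every CCACGCCC is also a CCNCNCCC. The form CCACACCC of the beta-globin promoter did not differ detectably at this number of promoters, at 2.68 and 3.58% (-0.91 points, -4.08 to 2.09). AGATAA, a form of the GATA motif, was in 4.35% of bound and 8.60% of other promoters (-4.25 points, -8.53 to -0.22), with intervals that include 0 within both GC classes, and the shorter GATAA was in 16.1 and 16.5%. TGACTCA and CANNTG, the letters of AP-1 and NF-E2 and of E-boxes, differed by 0.525 points (-2.26 to 3.29) and -4.67 points (-12.5 to 3.22). With genes called bound by the wider span rule the CCNCNCCC shares were 69.9 and 67.9%, a difference of 1.96 points (-0.71 to 4.58). That comparison took all listed genes of both strands, not only forward genes with a listed first coding exon. In it the shares were 81.80 and 81.77% at 60% GC or more, and 49.0% in bound against 51.3% in other promoters below it. The genes changed along with the rule, so the smaller difference cannot be put down to the rule alone.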

How the data were processed

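Peaks of 1 progenitor ChIP-seq library and exon values of 1 progenitor RNA-seq library were used, with deposited coordinates in build mm9, per the submitters' processing notes. The aligner, the caller of peaks and the counter of RNA reads are not named by any source used here. Per the labels' protocols, fragments of about 200 bp were selected and antibody-free chromatin served as background. The deposited peak list gives a fold enrichment, so read because it is never below 2.14, and a -log10 p, never below 5.0, for each interval. Total reads are unknown.

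The deposited expression values are a coverage signal per coding exon, whole multiples of 1 step (1835 steps per unit, all within 0.01), with no length divided out. A level per coding length was planned, but no coding lengths were at hand. Levels were therefore summed over the listed exons of 1 transcript per gene and ranked within classes of exon number. Of 6853 transcripts 6772 matched a symbol in the RefSeq table of GRCm38.p6, which gave names and gene order only.

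Shares carry Wilson and differences Newcombe 95% intervals. No test was possible with 1 list. Genes and peaks were named by a written rule: the highest ranked, most enriched, widest and narrowest peaks, the largest clusters, the genes with most peaks or the highest levels, 6 fixed genes, and up to 4 bound and 3 unbound members of each list. The distances of unbound members, the remaining clusters and the other named genes were chosen after their values were seen. Some items that the rule names are left out of the text. The members and lists were chosen with earlier results of these data known. The steps were tested on simulated data. Python 3.11.15, pandas 2.3.3, numpy 2.4.6, scipy 1.17.1 and matplotlib 3.10.9 were used.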

Additional observations from a re-analysis of the deposited data

How the results depend on the processing

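Of 61 alternatives 17 were of a signed difference, by level class or by motif, and none of these turned its sign. The others are widths, gaps and shares, which have none. In 25 of the 61 the value stayed inside the 95% interval of the reported one and in 36 it moved out of it. With the higher-ranked 50% of peaks, and with peaks at or above the median enrichment, respectively, the median width was 2081 and 1859 bp, the median gap 347 and 348 kb, the share in clusters 6.33 and 5.82% and the share within 1 kb of an exon start 12.5 and 12.8%. First coding exons with a peak fell to 31.1 and 31.2%, last coding exons to 3.43 and 2.70%, bound genes to 18.5 and 19.4%, and bound list members to 31.8 and 31.0%. The difference between the highest and lowest level class was then 14.3 and 13.4 points. The share in clusters was 2.65, 6.17, 19.2 and 33.5% with gaps of at most 2, 5, 25 and 50 kb. From the nearest peak edge 13.1% of peaks lay within 1 kb. Last coding exons had a peak in 3.43, 8.10 and 15.4% within 0.5, 2 and 5 kb. Spans extended by 0, 1, 10 and 50 kb gave 15.8, 19.6, 39.9 and 70.0% of genes bound, peak centres inside the span 28.4%, and 5 kb around the most 5′ listed exon start, added after the data were seen, 28.3%. The level difference was 12.9 points with a span extended by 0 kb and 7.63 with 50 kb. In forward genes with a listed first coding exon, also added later, it was 14.1 points (-3.25 to 30.4). That value is by the span rule in 10 classes, unlike the 1 kb rule and 5 classes used for these genes above. By the span rule, over all listed genes, the CCNCNCCC difference was 1.96 points (-0.71 to 4.58). Leaving out the chromosome 13 histone window kept every result it was run on inside its interval. The summed level, listed as an alternative, became the reported one. No paired analysis was possible because each stage has 1 peak list and progenitors 1 RNA column. Counting error is the only error these files give, total reads are unknown, and genes missing from the expression table limit every distance and bound share.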
